A study of Mus musculus with 22 samples.

Results

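The comparison described here is of mouse B cells activated with lipopolysaccharide (LPS) and IL21 against B cells activated with LPS. It rests on 2 of the 22 libraries of the series, 1 per condition, taken by their labels. All ranked genes are protein-coding rows of the files. Of 20674 such rows, 42 chromosome Y genes and 11 haemoglobin genes were left out, and the other 20621 were ranked by the difference in log2(TPM + 1), LPS+IL21 minus LPS. TPM is a level of transcripts corrected for their length and scaled to a constant sum in each library. Both libraries came, per the labels, from mature C57BL/6J spleen B cells enriched by removing other cells. RNA was taken from 0.5 M cultured cells, selected for poly(A) and sequenced for 50 cycles. Doses, hours of culture, sex and number of mice are not stated in the labels. The series also holds 4 other activated B cultures, labelled aBCD180, aCD40+IL4, LPS+IL4 and LPS+a-d-dextran, and a library of splenic B cells, and these 5 show where a level in the LPS+IL21 library stands. No group has a second library, so no p-value, SE or SD can be given, and a difference between these cultures cannot be told apart from a difference between mice or preparations.

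LPS is a bacterial glycolipid that drives mouse B cells to divide and secrete antibody through Toll-like receptor 4. IL21 is a cytokine of follicular helper T cells. Its receptor pairs IL21R with the common gamma chain (Il2rg), the kinases JAK1 and JAK3 bind the chains, and the signal reaches the nucleus mainly through STAT3. STAT factors switch on their own inhibitors, the SOCS genes, beside genes of growth and differentiation. In B cells IL21 is known for promoting germinal centre and plasma cell fates, and for promoting death of cells that were stimulated through Toll-like receptors alone.

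The total expected count was 30.8 M in the LPS library and 37.4 M in the LPS+IL21 library, and 40.7 to 105.5 M in the other 5 B-cell libraries. Genes between 9 and 11 TPM had a median of 484 counts in LPS, for which the 95% counting interval runs from -8.7% to 9.3%, and of 615.5 counts in LPS+IL21 (-7.7% to 8.2%). Summed chromosome Y transcripts stood at 0.12 TPM in LPS, 126.48 in LPS+IL21 and 345 in splenic B cells, and at 0.76 or less in the other 4 cultures. Summed haemoglobin stood at 6236 TPM in LPS and 18542.6 in LPS+IL21, and from 6.4 to 11584.8 in the other 4 cultures. The adult beta-globin gene Hbb-bs was listed at 0 in LPS and the other 4 cultures, and stood at 86.9 TPM in LPS+IL21 and 49.3 in splenic B cells. Of the genes called below, 40 (29 higher and 11 lower, on 16 chromosomes) divide the 7 libraries in the same way: LPS+IL21, LPS+IL4 and splenic B cells on the same side, the other 4 cultures on the opposite side, with a gap of at least 1 on the log2(TPM + 1) scale. The side of LPS+IL21 thus holds 2 libraries that the labels do not name as given IL21. This division was chosen after seeing the data and sought among all 20621 genes ranked. Its gap and a minimum of 10 TPM on the higher side make every such gene a called one by construction. No other division of the 7 libraries was counted.

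These 40 genes hold 8 of the 20 largest named increases and 4 of the 20 largest named decreases. Trim12a, of a family of antiviral restriction factors, was listed at 0 in LPS, aCD40+IL4 and aBCD180 and stood at 0.06 TPM in LPS+a-d-dextran, against 71.2 in LPS+IL21, 53.1 in LPS+IL4 and 264.9 in splenic B cells. Against a floor of 3 counts in the LPS library it was at least 537-fold higher in LPS+IL21. The related Trim30d stood at 0.03 to 0.19 TPM in the group with LPS and at 26.6 in LPS+IL21, 15.2 in LPS+IL4 and 62.9 in splenic B cells. Coro2a, an actin-binding coronin, stood at 0.24 to 0.66 TPM on the side of LPS and at 80.7, 41.3 and 75.2 on the side of LPS+IL21. Apobec3, a cytidine deaminase that restricts retroviruses, stood at 57.0 TPM in LPS and 464 in LPS+IL21, with 386 in LPS+IL4 and 47.2 to 56.4 in the other 3 cultures. H2-K1, a classical MHC class I heavy chain, stood at 470 TPM in LPS, 1707 in LPS+IL21 and 1646 in LPS+IL4. Ly6a, the surface antigen Sca-1, stood at 111 TPM in LPS, 780 in LPS+IL21 and 502 in LPS+IL4. In the other direction, the class I gene H2-Q10 stood at 68.6 TPM in LPS and 0.09 in LPS+IL21, with 3.16 in LPS+IL4 and 35.1 to 117 in the other 3 cultures. Lacc1, an immunometabolic enzyme, stood at 139 TPM in LPS, 11.6 in LPS+IL21 and 14.0 in LPS+IL4. For these genes a change with IL21 and a difference between the mice used cannot be told apart. They stay in the counts below, and of the gene lists described below only the class I list holds a called member of the 40, H2-K1.

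**Figure D1:**
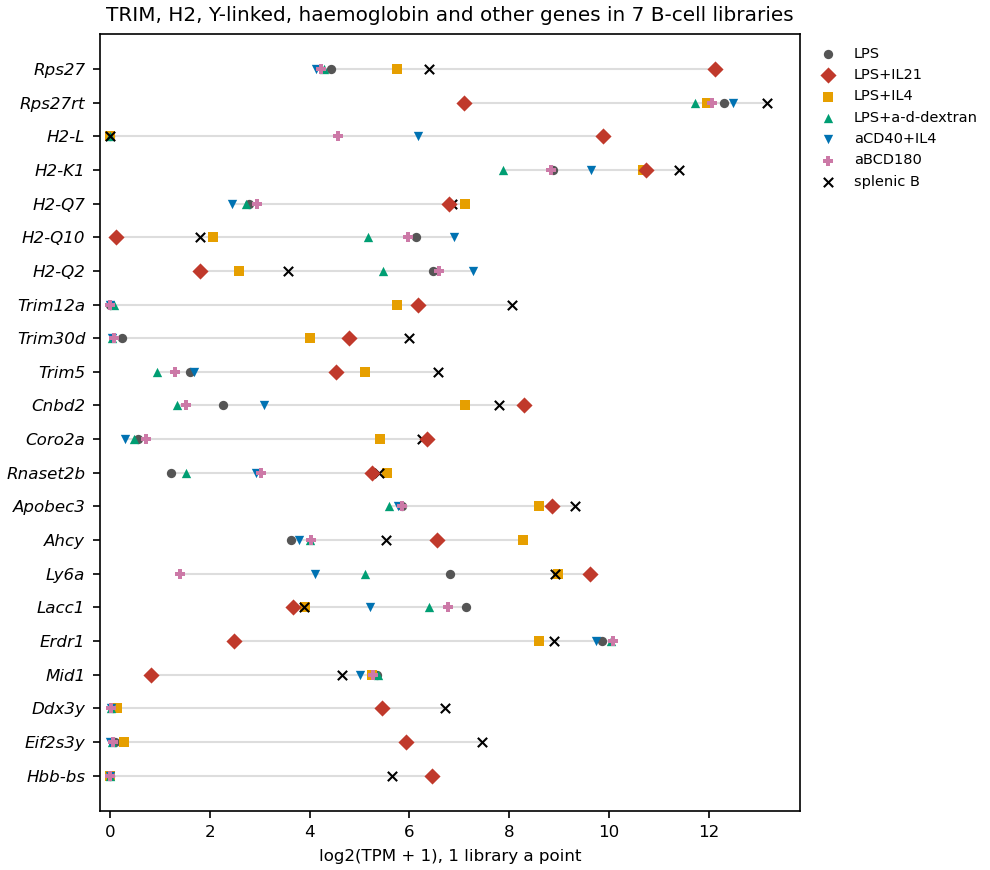
Levels of 22 genes in 7 primary B-cell libraries, as log2(TPM + 1) on the horizontal axis, 1 point per library with no error bar because no group has a replicate. For most of the TRIM, H2 and other genes the LPS+IL21 diamond sits with the LPS+IL4 square and the splenic cross, away from LPS and the other cultures, and for Rps27, Rps27rt, H2-L, Erdr1 and Mid1 it sits apart from every other library.

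A few of the most extreme genes stand apart in LPS+IL21 from every library, and several of them have near-identical copies, so the counting may have split their reads. Rps27, a ribosomal protein gene, stood at 20.6 TPM in LPS and 4464 in LPS+IL21, and its copy Rps27rt at 5029 and 135. The sum of both was 5049.6 TPM in LPS and 4599.9 in LPS+IL21, so the sum differed little where each member differed by more than 30-fold. H2-L, a class I heavy chain close in sequence to other H2 genes, was listed at 0 in LPS and stood at 944 TPM in LPS+IL21, with 70.7 in aCD40+IL4, 22.8 in aBCD180 and 0 in the other 3 libraries. Erdr1, a gene at the end of the X chromosome, stood at 924 TPM in LPS and 4.59 in LPS+IL21, against 384 to 1081 in the other 4 cultures and 476 in splenic B cells. Its neighbour at the pseudoautosomal boundary, Mid1, a ubiquitin ligase of microtubules, stood at 39.6 TPM in LPS, 0.78 in LPS+IL21 and 24.0 to 40.1 elsewhere. Genes that escape X inactivation lay lower as well: all 6 measured were below 0, with a median difference of -0.94. Eif2s3x, a translation initiation factor subunit with a Y-linked partner, stood at 365 TPM in LPS and 167 in LPS+IL21 (-1.13, and -0.91 with TMM scaling, which is under the threshold). On the X chromosome 2 of 247 genes considered were higher (0.81%, against 2.65% of all) and 14 lower (5.67%, against 4.07% of all). Chromosome 18 had a smaller share of higher genes (0.495%), and chromosome 1 a larger share of lower genes (6.41%). X had the lowest median difference of the chromosomes (-0.31, against -0.29 on chromosome 16 and -0.19 over all genes). The part that the sex of the mice has in the X-linked values was not tested.

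A gene was considered when it reached 10 TPM in either library. It was called when the difference in log2(TPM + 1) was 1 or more in size, a 2-fold change, and its higher level was 10 TPM or more. Of 8288 genes considered, 220 were called higher in LPS+IL21 (2.65%) and 337 lower (4.07%), together 6.72%. A difference of at least 2 was met by 56 higher and 54 lower genes. These counts describe 2 libraries and not the conditions. Their balance depends on the scaling, because the median difference over all genes considered was -0.19 and 5748 genes lay below 0 against 2536 above. Higher genes made up 39.5% of the calls on deposited TPM, 60.6% with differences centred on that median (289 higher, 188 lower), 57.4% with TMM-scaled CPM (expected counts per library size) (319 and 237) and 67.5% with median-of-ratios scaling (332 and 160). Leaving out the 40 dividing genes, a choice made after seeing the data, gave 191 higher and 326 lower. Just inside the threshold were Plac8 (1.01) and Dnase1l1 (-1.0012), and just outside it Il4ra (0.99), the IL4 receptor alpha chain, and Zmym1 (-0.9986).

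**Figure D2:**
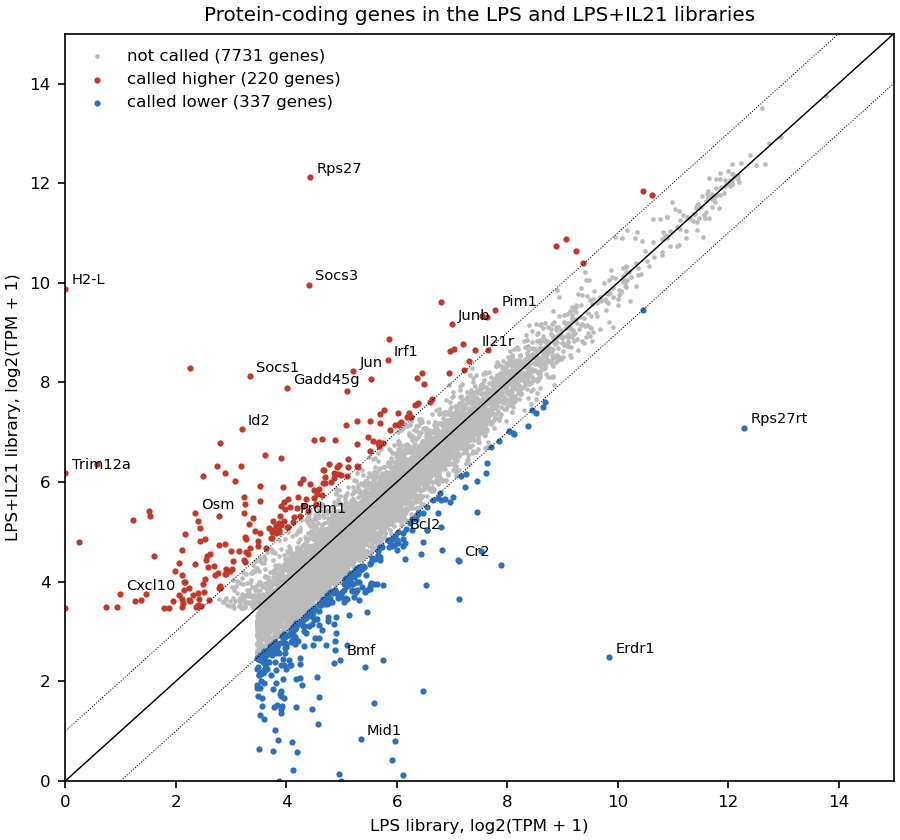
Level of 8288 protein-coding genes in the LPS library (horizontal axis) and the LPS+IL21 library (vertical axis), as log2(TPM + 1), with the line of equal level and dotted lines at a difference of 1. The 220 genes called higher and 337 called lower are coloured, and Socs3, at 20.3 TPM in LPS and 998 in LPS+IL21, lies far above the line.

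The gene of the IL21-specific receptor subunit was higher in LPS+IL21, and no other gene of the pathway list was called. Il21r stood at 170 TPM in LPS and 400 in LPS+IL21, a TPM ratio of 2.35 with an exact 95% counting interval of 2.29 to 2.42 (Clopper-Pearson on the split of the 2 counts). Such intervals describe counting error only. They can be too narrow even for that, since reads without molecular identifiers are not independent molecules. The LPS+IL21 value was also above LPS+IL4 (285 TPM), aCD40+IL4 (208), LPS+a-d-dextran (136), aBCD180 (129) and splenic B cells (274). Il2rg, the shared gamma chain, stood at 225 TPM in LPS and 337 in LPS+IL21 (difference 0.58), under the threshold. The kinase genes Jak1 (209 and 249 TPM) and Jak3 (129 and 146) and the factor gene Stat3 (120 and 166) were not called either. Of 14 members of the receptor and JAK-STAT list, all considered, 1 was called higher and 0 lower, with a median difference of 0.17, or 0.37 relative to the median of all genes. Beside this and every list count below stand the shares over all genes considered, 2.65% higher and 4.07% lower.

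Genes that STAT factors are known to induce were the group with the highest median: of 17 considered, 9 were called higher and 1 lower, with a median difference of 1.23 (1.43 relative to the median of all genes). Socs3, the feedback inhibitor that binds the gp130 family of receptors and blocks JAK, stood at 20.3 TPM in LPS and 998 in LPS+IL21. It stood at 106 in aCD40+IL4, 33.0 in LPS+IL4, 10.9 in LPS+a-d-dextran, 2.30 in aBCD180 and 9.80 in splenic B cells. The ratio to LPS was 49.1 (counting interval 45.9 to 52.7), and the LPS+IL21 level was above every other library by at least 3.22 on the log2 scale. Socs1, the related inhibitor of interferon and gamma-chain receptors, stood at 9.09 TPM in LPS and 279 in LPS+IL21, a ratio of 30.7 (26.4 to 36.1). For Socs1 the highest library was aCD40+IL4, at 490 TPM, with 24.6 in LPS+IL4 and 4.76 to 6.01 in the other 3 libraries. Cish, an inhibitor mainly of STAT5 signals, stood at 0.57 TPM in LPS, 9.05 in LPS+IL21, 33.5 in LPS+IL4 and 369 in aCD40+IL4, and did not reach the minimum TPM of 10 in the compared pair. LPS+IL21 was thus the highest culture for Socs3, while the IL4 cultures were higher for Cish.

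Other members of the group encode regulators of transcription, survival and growth arrest. Irf1, an interferon regulatory factor, stood at 56.2 TPM in LPS and 349 in LPS+IL21 (ratio 6.21), against 149 in aCD40+IL4, 65.7 in LPS+IL4, 21.2 to 31.8 in the other 2 cultures and 177 in splenic B cells. Gadd45g, a stress-response adaptor, stood at 15.2 TPM in LPS and 235 in LPS+IL21 (ratio 15.5), between LPS+IL4 (127) and aCD40+IL4 (373). Osm, which encodes the gp130 cytokine oncostatin M, stood at 4.11 TPM in LPS and 40.3 in LPS+IL21 (ratio 9.80), and at 1.79 to 8.78 in the other 4 cultures. Pim1, a survival kinase, stood at 219 TPM in LPS and 698 in LPS+IL21 (ratio 3.19), and at 88.1 to 373 in the other cultures. Bcl3, a nuclear partner of NF-kB p50 and p52, stood at 123 and 290 TPM (ratio 2.36), and Nfil3, a leucine-zipper repressor, at 20.5 and 61.1 (ratio 2.98), with 551 TPM of Nfil3 in aCD40+IL4. Pim2, a kinase related to Pim1, went the other way, at 231 TPM in LPS and 112 in LPS+IL21 (difference -1.04, -0.85 relative to the median of all genes, which is under the threshold). Batf (284 and 280 TPM), Hif1a (49.8 and 48.1) and Myc (165 and 132), further members, were not called. LPS+IL21 was the highest of the 6 cultures for 8 of the 21 members measured.

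**Figure D3:**
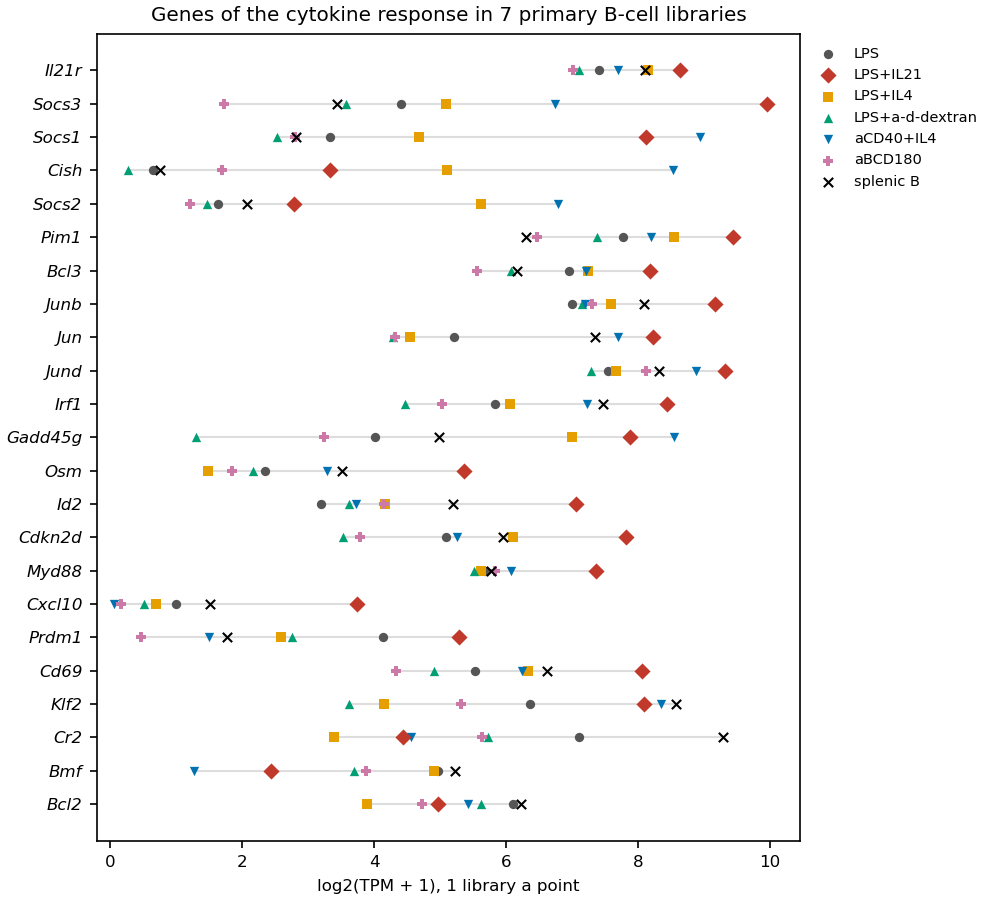
Levels of 23 genes in 7 primary B-cell libraries, as log2(TPM + 1), 1 point per library with no error bar because no group has a replicate. The LPS+IL21 diamond is the rightmost point for Il21r, Socs3, Pim1, Junb, Irf1, Osm, Id2, Cdkn2d, Myd88 and Prdm1, while aCD40+IL4 is rightmost for Socs1, Cish and Gadd45g.

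Start-site sequences of Socs3 and Irf1 are shown because they are the members called higher in the STAT-induced list whose windows carry the palindrome TTCNNNGAA (N is any base), the core of a STAT site. Each line gives the 250 bases before the start from RefSeq (GRCm38.p6), on the gene's own strand, with the match in capitals. The windows lie at chr11:117969367-117969616 on the minus strand for Socs3 and chr11:53769764-53770013 on the plus strand for Irf1.
Socs3: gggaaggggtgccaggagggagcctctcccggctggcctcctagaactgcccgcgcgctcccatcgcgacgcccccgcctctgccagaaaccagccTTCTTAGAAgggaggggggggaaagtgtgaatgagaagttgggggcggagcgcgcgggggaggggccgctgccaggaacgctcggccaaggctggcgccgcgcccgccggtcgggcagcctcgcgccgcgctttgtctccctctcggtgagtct
Irf1: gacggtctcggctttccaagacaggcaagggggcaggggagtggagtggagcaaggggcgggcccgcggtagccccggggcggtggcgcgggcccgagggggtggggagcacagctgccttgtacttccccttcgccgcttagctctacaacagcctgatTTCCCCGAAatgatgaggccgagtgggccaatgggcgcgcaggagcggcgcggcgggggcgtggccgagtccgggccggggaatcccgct
The Socs3 match begins 154 bases and the Irf1 match 90 bases before the start. The motif reads the same on both strands. It was found in 7.02% of 32851 RefSeq windows of this length and in 7.06% of the 6673 considered genes with a window. Of 220 genes called higher 168 had a window and 15 of these (8.93%) a match, among them Myd88, Isg20 and Serpina3g. Of 337 called lower 267 had a window and 22 (8.24%) a match. The shares in the called genes were close to that of all genes. A match is a run of letters and not a bound site.

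The AP-1 genes Jun, Junb and Jund, whose products answer acute signals, were higher in LPS+IL21, and most other genes of their list were not called. Jun stood at 36.1 TPM in LPS and 299 in LPS+IL21 (ratio 8.28, counting interval 7.88 to 8.70), with 207 in aCD40+IL4, 163 in splenic B cells and 18.6 to 22.3 in the other 3 cultures. Junb stood at 127 TPM in LPS and 576 in LPS+IL21 (ratio 4.54), against 141 to 192 in the other 4 cultures, so that no other culture came within 1.58 on the log2 scale. Jund stood at 186 and 640 TPM (ratio 3.44), with 473 in aCD40+IL4. Of 10 AP-1, BATF and EGR genes considered these 3 were higher and 0 lower (median 0.43, or 0.62 relative to all genes). Egr1 (67.4 and 41.5 TPM), Egr3 (36.7 and 22.6) and Nr4a1 (41.4 and 25.6), which follow antigen receptor signals, lay below 0 and were not called. Outside the list, among the genes that differed most, Dusp5, a nuclear phosphatase of ERK, stood at 5.72 TPM in LPS and 78.7 in LPS+IL21 (ratio 13.8, 11.2 to 17.1), and at 2.70 to 13.2 in the other 5 libraries. Ier5l, an immediate-early response gene, stood at 1.86 TPM in LPS, 41.8 in LPS+IL21 and 0.31 to 3.70 elsewhere. Cebpb, a leucine-zipper factor of acute-phase genes, stood at 4.40 TPM in LPS, 27.0 in LPS+IL21 and 1.40 to 7.55 elsewhere.

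Id2, which encodes an inhibitor of the E proteins that maintain B-cell identity, stood at 8.16 TPM in LPS and 133 in LPS+IL21 (ratio 16.3, 13.8 to 19.3). The other 4 cultures stood at 11.3 to 17.0 TPM and splenic B cells at 35.8. Id3, the related inhibitor, stood at 165 and 121 TPM, and the E protein genes Tcf3 (163 and 167) and Tcf12 (59.8 and 58.7) were level. Of 9 genes of this list Id2 was higher and 0 were lower (median -0.10, or 0.09 relative to all genes).

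Genes of cell division were level and 2 cell-cycle regulators were higher. Of 24 proliferation genes considered, 0 were called in either direction (median 0.05, or 0.24 relative to all genes). Mki67, a marker of dividing cells, stood at 165 TPM in LPS and 171 in LPS+IL21, and Top2a, the mitotic topoisomerase, at 263 and 272. Cdkn2d, the CDK4 and CDK6 inhibitor p19, stood at 33.2 TPM in LPS and 226 in LPS+IL21 (ratio 6.79, 6.25 to 7.39), against 10.5 to 67.9 in the other 4 cultures and 61.0 in splenic B cells. E2f2, an E2F factor of S-phase entry, stood at 46.6 and 112 TPM (ratio 2.41), with 29.0 to 51.1 elsewhere. Cdkn1b, the inhibitor p27, stood at 71.6 and 36.0 TPM (difference -0.97), and Cdk6 at 33.0 and 19.0, both short of the threshold. In all, 2 of 13 G1 regulators were higher and 0 lower (median -0.14, or 0.05 relative to all genes).

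Plasma cell genes divided: the repressor that directs the fate was higher, and most genes of secretion were level. Prdm1, which encodes Blimp-1, stood at 16.6 TPM in LPS and 38.3 in LPS+IL21 (ratio 2.31, 2.17 to 2.46), above every other library (0.38 to 5.73). Xbp1, the factor of the secretory apparatus, stood at 99.1 and 165 TPM (difference 0.73), and Irf4, which acts beside Blimp-1, at 191 and 123 (-0.63). Jchain, the joining chain of secreted IgM and IgA, stood at 91.4 and 107 TPM, and Sdc1, the surface marker CD138, at 2.67 and 6.03, under the minimum level. Of 18 members considered, 3 were higher and 0 lower (median 0.18, or 0.38 relative to all genes), the other 2 being Slpi, a protease inhibitor (10.5 and 59.2 TPM), and Ly6c2, a surface antigen shared with monocytes (13.8 and 39.1). Of 24 genes of the secretory pathway and unfolded protein response 0 were called (median 0.18), and 19 lay above 0. Hspa5, the chaperone BiP, stood at 859 and 1014 TPM.

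Germinal centre genes were mixed. Bcl6, the repressor that defines the germinal centre fate, stood at 27.2 TPM in LPS and 18.8 in LPS+IL21 (-0.51). Plxnb2, a semaphorin receptor, stood at 6.41 and 26.0 TPM. Of 13 genes considered 3 were higher, Il21r among them, and 0 lower (median -0.003, or 0.19 relative to all genes). Of 21 genes of the class switch machinery 1 was called higher and 0 lower (median -0.23, or -0.04 relative to all genes). Below 0 lay 19 of them, with Rif1, an end-protection factor, at 31.3 and 15.5 TPM (-0.97).

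B-cell identity genes as a group were level, and 2 surface receptors were lower. Pax5, the lineage factor, stood at 455 and 374 TPM, and Cd79a, of the antigen receptor, at 1268 and 1921, so both libraries carried the labelled cell type. Cr2, which encodes the complement receptors CD21 and CD35, stood at 137 TPM in LPS and 20.6 in LPS+IL21, 6.67-fold lower (6.39 to 6.96). It stood at 629 TPM in splenic B cells and at 9.50 to 51.9 in the other 4 cultures, so LPS had the highest and LPS+IL21 the second lowest value of the cultures. Fcer2a, the low-affinity IgE receptor CD23, stood at 350 and 173 TPM (difference -1.02, -0.83 relative to the median of all genes), with 1778 in aCD40+IL4. Against LPS+a-d-dextran (57.3 TPM) the LPS+IL21 value of Fcer2a was higher, not lower. Of 23 genes considered 0 were higher and these 2 lower (median -0.01). Il9r, a gamma-chain cytokine receptor, stood at 14.1 TPM in LPS and 1.56 in LPS+IL21, and at 125 in splenic B cells.

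Genes of T-bet-positive, CD11c-positive B cells, a memory-like subset known to depend on IL21, lay above 0 in 9 of 10 genes considered, and 3 were called (median 0.79, or 0.98 relative to all genes). Itgam, the integrin CD11b, stood at 4.84 TPM in LPS, 20.6 in LPS+IL21 and 0.46 to 4.19 in the other 5 libraries. Lgals1, galectin-1, stood at 44.7 and 148 TPM, and Fgl2, a fibrinogen-like secreted protein, at 7.02 and 23.4, with LPS+IL4 higher for each (210 and 33.7). The subset's defining genes were low in both libraries: Tbx21 (T-bet) stood at 2.97 and 5.06 TPM, and Itgax (CD11c) at 0.87 and 0.80. Zeb2, a repressor needed for this subset, stood at 29.9 and 55.9 TPM (0.88), and Fcgr2b, the inhibitory Fc receptor, at 337 and 572 (0.76), both under the threshold.

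Type I interferon response genes mostly lay above 0, and 6 of the 7 called were above every other culture by at least 1. Of 19 considered, 7 were higher and 0 lower, with a median of 0.76 (0.96 relative to all genes). The 23 members measured summed to 994 TPM in LPS+IL21, near splenic B cells (924), and to 191 to 747 in the other 5 cultures. Isg15, a ubiquitin-like modifier, stood at 99.0 TPM in LPS and 201 in LPS+IL21, at 59.6 to 61.5 in the other LPS cultures and at 3.22 to 6.79 in aCD40+IL4 and aBCD180. Oas1a, a double-stranded RNA sensor, stood at 14.0 and 44.6 TPM (ratio 3.18, 2.85 to 3.56), with 1.66 to 14.5 in the other 4 cultures. Rsad2, the antiviral enzyme viperin, stood at 2.45 and 10.2 TPM, and Mx1, an antiviral GTPase, at 8.42 and 20.7. Oasl1 stood lower, at 154 and 104 TPM (-0.56), and Stat2 (56.1 and 39.7) was not called. Cxcl10, an interferon-induced chemokine, stood at 0.99 TPM in LPS, 12.4 in LPS+IL21 and 0.04 to 0.62 in the other 4 cultures. Interferon-inducible GTPases split, with Gbp2 (19.4 and 49.4 TPM) and Tgtp2 (5.85 and 25.7) higher and Gbp4 (23.0 and 10.7) and Gbp9 (46.2 and 20.8) lower, of 11 considered. With differences centred on the median of all genes, 5 were higher and 0 lower, so neither decrease met the threshold there. Myd88, the adaptor of Toll-like receptors, stood at 50.6 TPM in LPS and 164 in LPS+IL21 (ratio 3.24, 3.06 to 3.44), against 44.6 to 66.4 in the other 5 libraries. It was the 1 member called of 10 Toll-like receptor genes (median -0.01, or 0.18 relative to all genes). Cd180 (159 and 129 TPM) and Tlr9 (79.3 and 65.8) were not called.

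The windows before Isg15 and Oas1a are shown because they are 2 of the 3 called interferon genes whose windows hold a repeat of TTTC with any 2 bases between, the core of an interferon-stimulated response element. They lie at chr4:156200819-156201068 and chr5:120907526-120907775, both on the minus strand (RefSeq, GRCm38.p6), and capitals mark matches on either strand (GAAA on the printed one), joined where they overlap.
Isg15: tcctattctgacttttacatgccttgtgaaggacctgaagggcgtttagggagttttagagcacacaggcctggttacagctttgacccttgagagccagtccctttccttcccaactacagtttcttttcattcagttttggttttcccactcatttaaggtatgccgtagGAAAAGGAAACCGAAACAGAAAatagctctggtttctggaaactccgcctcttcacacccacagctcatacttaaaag
Oas1a: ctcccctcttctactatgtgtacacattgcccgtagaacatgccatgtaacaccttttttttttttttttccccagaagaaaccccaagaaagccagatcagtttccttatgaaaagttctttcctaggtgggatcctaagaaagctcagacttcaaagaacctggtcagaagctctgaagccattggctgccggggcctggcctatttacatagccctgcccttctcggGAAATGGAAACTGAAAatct
Isg15 held 3 overlapping matches, the furthest 78 bases before the start, and Oas1a 2, the furthest 20 bases before it. The motif was found in 2.98% of all windows of this length and 3.42% of the considered genes. It was found in 18 of 168 genes called higher (10.7%) and in 12 of 267 called lower (4.49%). The 18 genes include Cxcl10, Gbp2, Tgtp2, Myd88, Rsad2 and Socs1, and also Apobec3, Coro2a, Trim30d and Trim5, which belong to the 40 dividing genes. These shares are a description with no test.

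Antigen presentation genes lay above 0 as a group. Of 14 MHC class II and presentation genes, 2 were higher and 1 lower (median 0.56, or 0.76 relative to all genes). The 15 members measured summed to 12280 TPM in LPS and 23250 in LPS+IL21, below splenic B cells (43750). Sums in the other 5 cultures, LPS included, ran from 3261 to 32700 TPM, so LPS+IL21 was not the highest culture. H2-Ab1, a class II beta chain, stood at 1399 TPM in LPS and 3667 in LPS+IL21 (ratio 2.62, 2.58 to 2.66), near aCD40+IL4 (3520) and above LPS+IL4 (1988). H2-Aa, its alpha chain, stood at 1584 and 3454 TPM, and Cd74, the invariant chain, at 6261 and 11690 (0.90), under the threshold. Icosl, the ligand of the T-cell co-stimulator ICOS, stood at 77.0 TPM in LPS and 31.8 in LPS+IL21. It stood at 6.09 TPM in LPS+a-d-dextran and 0.64 in LPS+IL4, so LPS+IL21 lay between the cultures. Of 15 class I presentation genes H2-K1 was the 1 called, and it belongs to the 40 dividing genes.

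Genes of traffic and activation included some of the clearest differences. Cd69, which retains lymphocytes in tissue, stood at 45.4 TPM in LPS and 268 in LPS+IL21 (ratio 5.89, 5.53 to 6.28), against 19.1 to 79.6 in the other 4 cultures and 97.3 in splenic B cells. Klf2, a factor of quiescence and recirculation, stood at 81.9 and 272 TPM (ratio 3.32), with 325 in aCD40+IL4 and 11.3 to 39.1 in the other 3 cultures. S1pr1, the egress receptor that Klf2 is known to activate, was higher as well (30.8 and 70.0 TPM). Ccr7, the receptor for T-zone chemokines, stood at 107 and 50.3 TPM. Of 18 genes of this list 6 were higher and 1, Ccr7, lower (median 0.23, or 0.42 relative to all genes). Relative to the median of all genes 6 were higher and 0 lower, and Ccr7 also lost its call with TMM scaling (-0.86) and against LPS+a-d-dextran (-0.58). Among cytokines, Tnf stood at 29.7 and 70.6 TPM, above the other 4 cultures (7.16 to 20.5), Il10, an inhibitory cytokine, at 39.9 and 61.8 (0.62, under the threshold), and Il6 at 12.8 and 5.71. Of 14 cytokine and chemokine genes considered 3 were higher and 1, Il6, lower. Relative to the median of all genes 4 were higher and 0 lower, and Il6 also lost its call with TMM scaling (-0.79).

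BCL2 family genes differed in both directions, with 1 death activator higher and death activators and survival genes lower. Bmf, a BH3-only death activator, stood at 30.4 TPM in LPS and 4.41 in LPS+IL21, 6.90-fold lower (6.20 to 7.70), between aCD40+IL4 (1.42) and LPS+a-d-dextran (12.0). Bcl2, the survival factor, stood at 68.2 and 30.5 TPM (2.24-fold lower, and -0.65 on the log2 scale against LPS+a-d-dextran), with 13.8 in LPS+IL4 and 73.8 in splenic B cells. Bid, a death activator cleaved by caspase-8, stood at 198 and 81.9 TPM, and Bcl2a1d, a survival gene with near-identical copies that make its count uncertain, at 408 and 194 (-0.84 with TMM scaling, under the threshold). Bbc3, the p53-induced death activator Puma, was higher, at 22.6 and 53.3 TPM (ratio 2.36). Bcl2l11, the death activator Bim, stood at 21.1 and 36.3 TPM (0.76), under the threshold. Of 16 considered 1 was higher and 4 lower, and 2 and 2 relative to the median of all genes.

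Metabolic and growth genes differed little. Of 16 glycolysis genes 0 were higher and 2 lower (median -0.26, or -0.07 relative to all genes), Eno1, an enolase (110 and 33.1 TPM, with 1327 in LPS+IL4), and Hk2, a hexokinase (38.8 and 18.6). Relative to all genes 1 was lower, and Hk2 stood at -0.83 with TMM scaling, under the threshold. Of 20 cholesterol synthesis genes 0 were called (median -0.22, or -0.03 relative to all genes). Of 20 genes of Myc and ribosome biogenesis 0 were called, while all 20 lay below 0 (median -0.41, or -0.22 relative to all genes). Ncl, nucleolin, stood at 673 and 442 TPM, and Npm1, nucleophosmin, at 2989 and 1925.

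**Figure D4:**
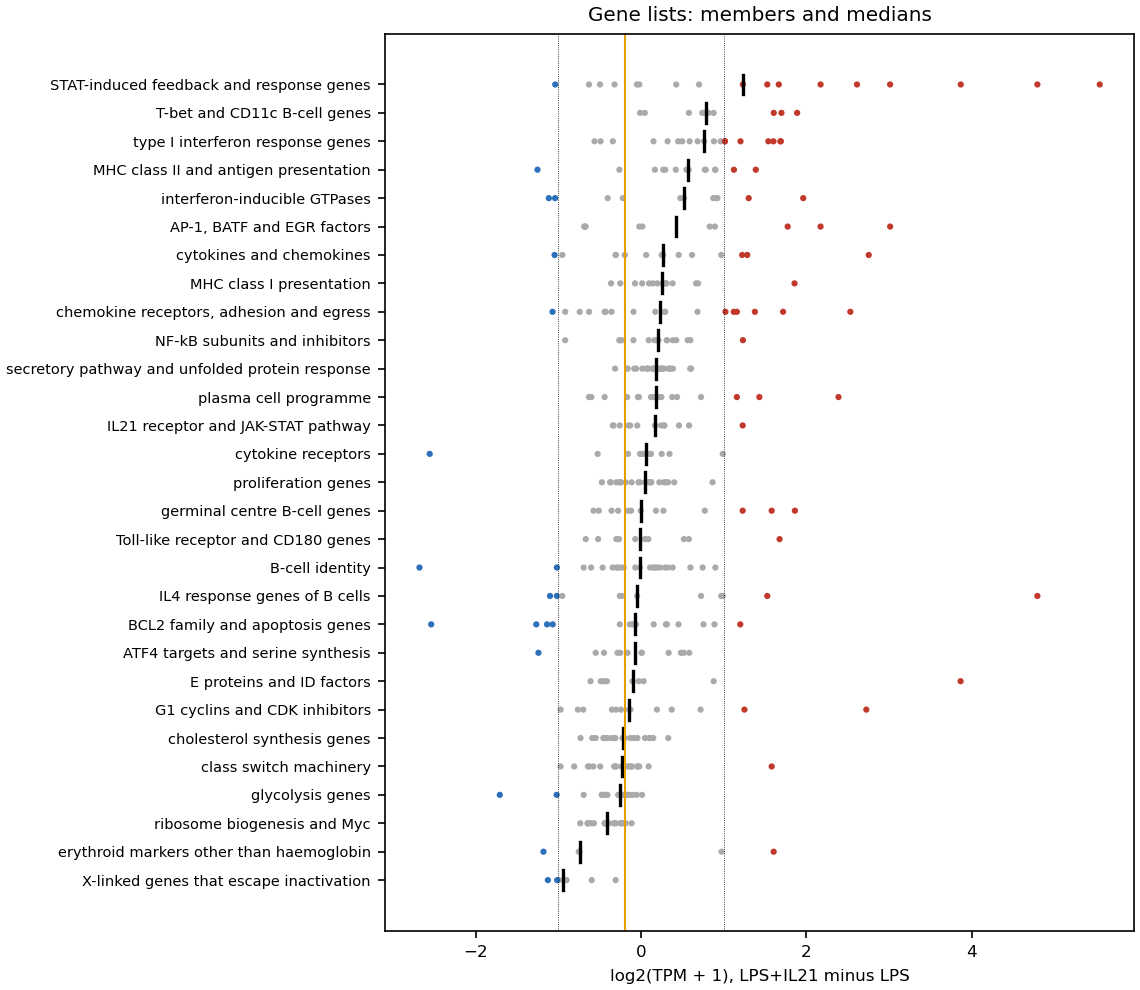
Difference in log2(TPM + 1), LPS+IL21 minus LPS, of the genes considered in each list with 5 or more of them, 1 point per gene, with a black bar at the list's median, dotted lines at -1 and 1 and an orange line at the median of all genes considered (-0.19). STAT-induced genes have the highest median (1.23), and X-linked genes that escape inactivation the lowest (-0.94).

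Set against all other 5 activated cultures, LPS+IL21 was above every other by at least 1 in 68 of 8954 genes (0.759%) and below every other in 25 of 6882 (0.363%), or 0.82% and 0.302% of the 8288 genes considered above. By the same rule LPS had 7 above and 0 below, LPS+a-d-dextran 2 and 53, aBCD180 56 and 14, aCD40+IL4 146 and 136, and LPS+IL4 300 and 224. All 68 genes above also count among the 220 called against LPS by construction. Splenic B cells, which were not used in this rule, also lay below LPS+IL21 by at least 1 for 39 of the 68. Beside those described, Lrrc25, a leucine-rich membrane protein, stood at 68.98 TPM in LPS+IL21 and 0.32 to 7.84 in the other cultures. Wfdc17, a secreted protease inhibitor, stood at 63.6 TPM against 0 to 7.54. Msmp, a small secreted protein, was listed at 0 in every other B-cell library and stood at 10.1 TPM in LPS+IL21, at least 35.7-fold above a floor of 3 counts in LPS. Ly6d, a surface antigen of B-cell precursors, stood at 1876 TPM in LPS+IL21, 536 in LPS and 26.7 to 192 in the other 4 cultures, with 1765 in splenic B cells. Uchl1, a ubiquitin hydrolase of germinal centre B cells, stood at 39.0 TPM against 1.10 to 10.96. Below every other culture were Dhrs3, a retinal reductase (3.20 TPM against 13.7 to 57.1), Fabp5, a fatty-acid binding protein (26.7 against 63.3 to 225), Nfat5, the osmotic stress factor (14.4 against 38.6 to 75.2), and Timd2, a ferritin receptor (3.35 against 10.4 to 47.5).

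The LPS and LPS+IL21 libraries were the third closest of the 15 pairs of activated cultures by this rule. LPS+a-d-dextran and aBCD180 differed in 380 genes (4.7%), LPS and aBCD180 in 499 (5.99%), and LPS and LPS+IL21 in 557. LPS and LPS+a-d-dextran differed in 624 (7.6%), LPS and aCD40+IL4 in 717 (8.5%), and LPS and LPS+IL4 in 1681 (19.7%). The farthest pair, LPS+IL4 and LPS+a-d-dextran, differed in 2310 (27.6%). The closest pair is the nearest thing to a scale of error here, although it is not a pair of replicates.

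**Figure D5:**
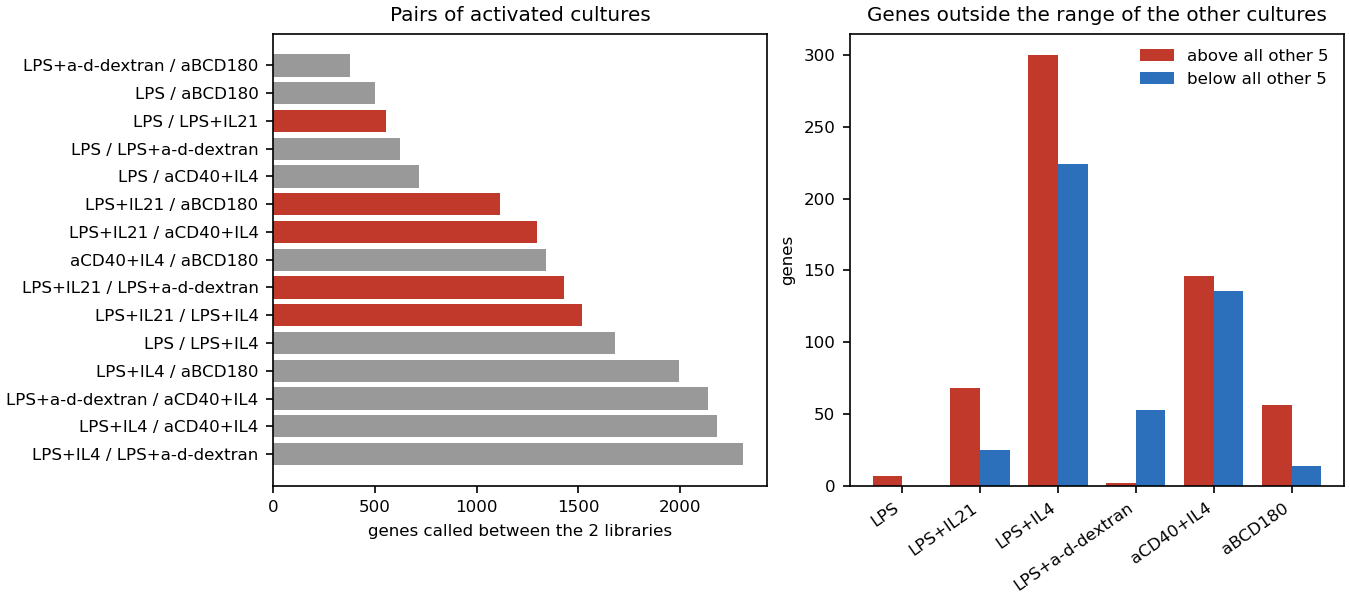
Left, genes called in either direction between each of the 15 pairs of activated cultures, with pairs that hold LPS+IL21 in red. Right, genes of each culture that lie at least 1 above (red) or below (blue) all other 5 on the log2(TPM + 1) scale, 68 and 25 for LPS+IL21 and 300 and 224 for LPS+IL4.

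Markers of other cells and properties of the libraries moved in part with the comparison. T-cell markers summed to 128 TPM in LPS and 192 in LPS+IL21 (60.8 to 264 in the other 4 cultures). The sum lay mostly in Cd2 and Lck, which B cells also express, while Cd3e stood at 0.66 and 1.58 TPM and Cd8a at 0.19 and 0.24. Natural killer markers summed to 8.10 and 5.76 TPM and neutrophil markers to 2.64 and 5.32, with 0 of 10 and 0 of 13 considered. Macrophage and monocyte markers summed to 182 and 274 TPM, mostly Apoe (144 and 202), while Csf1r stood at 0.22 and 0.55. Erythroid markers other than haemoglobin summed to 236 and 248 TPM. Of 5 considered, Alas2, the erythroid haem synthase, was higher (26.2 and 81.8 TPM). Car2 was lower (-1.18, and -0.95 with TMM scaling, under the threshold). In all, 2 of the 5 lay above 0 and 3 below (median -0.74, or -0.55 relative to all genes). In bulk RNA more cells of a type and more RNA per cell cannot be told apart. Called genes also differed in transcript length, with medians of 1894 bases for those higher, 2728 for all considered and 3187 for those lower. Across the 8288 genes, which are not independent replicates, the rank correlation of length with the difference was -0.29, and the size of this value was 0.036 to 0.331 for the other 14 pairs of cultures. The part of transcript length in the differences was not tested.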

How the data were processed

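Poly(A) RNA-Seq was deposited as 1 table per library. The tools named, per the submitters' processing notes, are RSEM, STAR, bedtools and CASAVA 1.8.2 with the mm10 build, and their roles and settings are not given in the sources used here. Expected counts are, per the file headers, estimated counts per gene, deposited without normalization, and 87.2% of them were whole numbers (within 1e-09). TPM were scaled by the authors per transcript length and to a constant sum per library. The lengths, per the file headers, are those of the authors' gene models. The other 4237 rows, all at 0, were left out. Of the 22 libraries 7 were used, grouped by their labels, and 20098 protein-coding rows had a chromosome in the RefSeq table.

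Differences are of log2(TPM + 1), with a pseudocount of 1, and fold ratios are of TPM. With 1 library per group no test was made. Intervals are exact 95% binomial (Clopper-Pearson) on the split of the rounded expected counts, and cover counting error at most. Where a library was at 0, the bound uses a floor of 3 counts per library. The genes and the 38 lists (607 genes, 9 missing from the files) were chosen with earlier results of these data known. Named genes were the 20 largest differences per direction without unnamed models and receptor segments, list members, and the 10 genes per direction furthest outside the other cultures. Other genes just inside or outside the threshold were chosen after their values were seen. Scripts were tested on simulated data. Alternatives were pseudocounts of 0.1 and 5, TPM minimums of 1 and 30, a difference of 2, TMM (edgeR 4.0.16, R 4.3.3), median-of-ratios and median-centred scaling, and LPS+a-d-dextran as the reference. Tables were made with numpy 2.4.6 and pandas 2.3.3, intervals with scipy 1.17.1 and figures with matplotlib 3.10.9. Start sites came from RefSeq GRCm38.p6. Some genes of the lists are not reported here.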

Additional observations from a re-analysis of the deposited data

How the results depend on the processing

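No paired analysis was possible because each condition is 1 library. Against 220 higher and 337 lower calls, a TPM minimum of 1 gave 366 and 635, a minimum of 30 left 141 lower, and a difference of 2 gave 56 and 54. A pseudocount of 5 left 169 lower, median-of-ratios scaling gave 332 and 160, and centring on the median left 188 lower. With LPS+a-d-dextran as the reference, added for these counts after seeing the data, there were 777 and 654. Of the 68 genes above and 25 below all other cultures, a TPM minimum of 1 gave 104 and 60, a minimum of 30 gave 45 and 8, and a difference of 2 gave 15 and 4. The count below was 11 with a pseudocount of 5, 12 with median-of-ratios scaling and 14 centred on the median. Of 189 named genes called, 189 kept a difference of at least 1 with a pseudocount of 0.1. This was fixed in advance, because a smaller pseudocount widens every difference. The tally here rests on the size of the difference alone, and the minimum of 10 TPM was not applied again. With TMM scaling 176 kept a difference of at least 1. The other 13 fell short with no change of direction, all 13 of them lower genes. With LPS+a-d-dextran as the reference 178 kept that size and 5 fell short with no change of direction. The 68 and 25 genes outside all other cultures and the 40 dividing genes are among the 189. They kept that size against LPS+a-d-dextran by construction. A further 6 lower genes lay above 0 against LPS+a-d-dextran: Fcer2a (1.57), Icosl (2.21), Gbp9 (0.63), Itgb3 (0.48), Gbp4 (0.37) and Cdh17 (0.048). The cause was not tested. A minimum of 10 TPM stands on about 484 counts in the LPS library, which limits counting precision, and the spread between cultures was not measured.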
